A study of Homo sapiens with 6 samples.

Results

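The genes described here belong to tryptophan breakdown through kynurenine and to the aryl hydrocarbon receptor (AHR), and were chosen by symbol: IDO1, TDO2, KYNU, KMO, WARS, AHR, AHRR, CYP1A1, CYP1B1 and TIPARP. All 10 had a row among the 58174 genes of the deposited tables. T24, an established line of human bladder cancer cells, was stably infected with lentivirus (pLKO.1 vector) that carried either an shRNA against UBC9 (shRNA-UBC9, 3 libraries) or a scrambled control shRNA (shRNA-NC, 3 libraries). Both groups were selected with puromycin and cultured further before polyA RNA was sequenced. UBC9 is the E2 enzyme that conjugates SUMO to proteins, and the study asked which genes respond to its loss. A single UBC9 shRNA sequence is given, so an effect of UBC9 loss and an effect particular to that shRNA cannot be told apart. Nothing says whether the libraries of a group came from separate cultures, so the p-values measure only the spread between these libraries, which may be technical.

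IDO1 and TDO2 catalyse the first step from tryptophan to kynurenine, and KMO and KYNU carry kynurenine on towards NAD synthesis. WARS, the cytosolic tryptophanyl-tRNA synthetase, charges tRNA with the same amino acid, and like IDO1 it is a classic interferon-gamma-induced gene. Kynurenine and several of its products are ligands of AHR, a receptor and transcription factor that pairs with ARNT, binds a short core sequence and induces CYP1A1, CYP1B1, AHRR and TIPARP. The last 2 of these feed back on the receptor, since AHRR is its repressor and TIPARP is a mono-ADP-ribosyltransferase that limits its activity.

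RPKM values are reads scaled to exon length and to the mapped reads of the library, and depth read from the steps between low values was 28200000 to 36100000 reads a library. Transcripts of blood cells (HBB, HBA1, HBA2, S100A8 and S100A9) were above 0 in shRNA-NC replicates 2 and 3 and in shRNA-UBC9 replicates 1 and 2, at 4.82 to 5.53 RPKM summed. All 5 were at 0 in shRNA-NC replicate 1 and shRNA-UBC9 replicate 3. Of 8 epithelial and urothelial markers, 5 passed the filter on low values. All 5 fell in shRNA-UBC9 by the adjusted p of the test described below, where 18.0% of all tested genes fell. Their median log2 fold change was -0.93, and only KRT7 went past the fold cutoff of 1. It was at 510.2 to 627 RPKM in shRNA-NC and at 216 to 286 RPKM in shRNA-UBC9, while KRT5 and KRT20 were at 0 in every library. The part of this difference in the other results was not tested. In bulk RNA, fewer cells of a type and less RNA per cell cannot be told apart.

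The tests used limma on log2(RPKM + 0.1), a scale that understates the change of low genes, over the 12428 genes with at least 0.5 RPKM in at least 3 of the 6 libraries. A differentially expressed gene (DEG) had a log2 fold change beyond 1 in either direction and a Benjamini-Hochberg adjusted p below 0.05. Of the 10 genes, 6 passed the filter: IDO1, KYNU, WARS, AHR, AHRR and TIPARP. TDO2, KMO, CYP1A1 and CYP1B1 were below it and are given by their values. KYNU was the only up-regulated DEG among the 6 and TIPARP the only down-regulated one, where up-regulated DEGs made up 5.20% of all tested genes and down-regulated DEGs 2.70%. By the adjusted p alone, 2 rose (KYNU and AHRR) and 2 fell (AHR and TIPARP), where 18.8% of all tested genes rose and 18.0% fell. The median log2 fold change of the 6 was 0.543, and that of all tested genes was 0.005. KYNU and AHRR reached 0.5 RPKM only in shRNA-UBC9, so they entered the test through the group where they were high, and the counts and the median carry that choice.

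**Figure D1:**
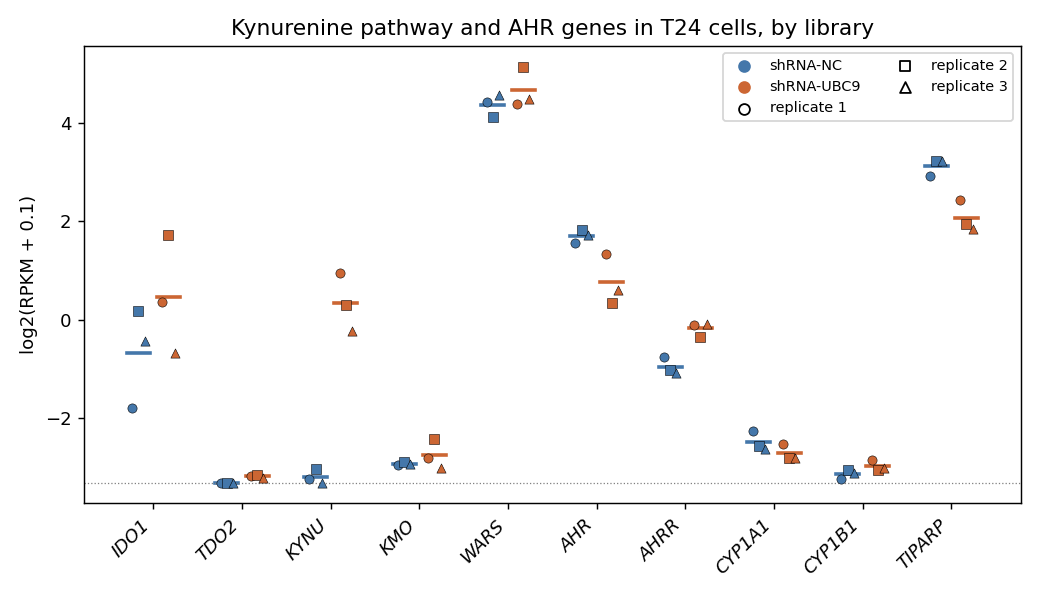
Level of each of the 10 genes, as log2(RPKM + 0.1) on the vertical axis, in 3 shRNA-NC libraries (blue) and 3 shRNA-UBC9 libraries (orange). Marker shapes give the replicate number, short bars are group means of the log values, and the dotted line is 0 RPKM. KYNU sits near the dotted line in shRNA-NC and between 0.753 and 1.84 RPKM in shRNA-UBC9, AHR and TIPARP are lower in every shRNA-UBC9 library, and the IDO1 groups overlap.

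Promoter sequence is shown for KYNU, AHRR and TIPARP, which passed the test by adjusted p, beside CYP1A1, the best known AHR target, and WARS, an interferon-induced gene that did not pass. AHR, which passed too, is not shown because its one match lies after the start site of its window. RefSeq windows from 250 bases before to 50 after a start site (GRCh38.p14) were found for 8 of the 10 genes, with 12 windows in all. IDO1 and CYP1B1 had none. Both strands were searched for GCGTG, the core bound by AHR with ARNT, for GAAANNGAA, a short form of the interferon-stimulated response element, and for TTCNNNGAA, the gamma-activated site of interferon-gamma signalling, which reads the same on both strands. Over all 35116 windows of this length, 36.5% held GCGTG, 8.1% held GAAANNGAA and 7.7% held TTCNNNGAA. The stretches printed here are free of annotated exons (GENCODE release 44), run 5′ to 3′ on the strand of the gene, and show in capitals a match to one of these motifs. KYNU (chr2:142877414-142877656, plus strand) has TTCNNNGAA at 34 bases before its start. AHRR (chr5:321464-321713, plus strand) has GCGTG at 30 bases before its first start, and CYP1A1 (chr15:74725537-74725778, minus strand) has it at 57 bases before. TIPARP (chr3:156674447-156674589, plus strand) has the same core on the other strand, read as CACGC, at 142 bases before its first start.
KYNU: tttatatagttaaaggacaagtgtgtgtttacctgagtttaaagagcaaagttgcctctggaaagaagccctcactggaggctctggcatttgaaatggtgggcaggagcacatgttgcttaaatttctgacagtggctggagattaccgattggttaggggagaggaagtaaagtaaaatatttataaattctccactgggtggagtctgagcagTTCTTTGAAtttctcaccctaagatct
AHRR: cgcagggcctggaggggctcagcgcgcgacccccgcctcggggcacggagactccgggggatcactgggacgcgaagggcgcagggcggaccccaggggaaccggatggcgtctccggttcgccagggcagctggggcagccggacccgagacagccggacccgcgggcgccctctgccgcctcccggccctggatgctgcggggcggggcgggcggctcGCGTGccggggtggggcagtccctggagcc
CYP1A1: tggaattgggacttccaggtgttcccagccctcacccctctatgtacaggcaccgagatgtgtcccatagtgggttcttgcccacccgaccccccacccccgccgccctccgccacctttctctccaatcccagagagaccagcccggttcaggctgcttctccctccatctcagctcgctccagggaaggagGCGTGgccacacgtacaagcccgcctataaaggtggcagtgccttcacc
TIPARP: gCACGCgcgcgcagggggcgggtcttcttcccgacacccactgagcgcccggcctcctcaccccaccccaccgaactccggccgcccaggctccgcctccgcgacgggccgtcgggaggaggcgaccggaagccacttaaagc

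For WARS, whose windows lie in annotated exons, 29 bases around each interferon-type match of its second start site are shown, on the minus strand. The GAAANNGAA match began 55 bases before that start (chr14:100375384-100375412) and the TTCNNNGAA match began 142 bases before it (chr14:100375471-100375499).
WARS, GAAANNGAA: tttcagaaggGAAACTGAAagaaagaggg
WARS, TTCNNNGAA: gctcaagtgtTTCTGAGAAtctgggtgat

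The windows of TDO2 and KMO held none of the 3 motifs, and neither did those of the other 2 TIPARP start sites. The AHR window held GCGTG at 37 bases after its start site. The match to GCGTG was thus present beside genes that fell (TIPARP, AHR), rose (AHRR), were scarcely detected (CYP1A1) or did not pass the test (WARS, with a match in both of its windows). A match describes the letters only and is no evidence of binding.

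Of the enzymes of the first step, IDO1 was the one with more than a few reads. It had 0.185, 1.03 and 0.643 RPKM in shRNA-NC replicates 1 to 3, which are 18, 116 and 71 reads, and 1.18, 3.19 and 0.522 RPKM in shRNA-UBC9, which are 139, 366 and 48 reads. The highest value was that of shRNA-UBC9 replicate 2, and replicate 3 of that group lay below 2 of the 3 control libraries, so the groups overlapped. The means were 0.619 ± 0.422 RPKM (SD, n = 3) and 1.63 ± 1.39 RPKM (SD, n = 3). Its log2 fold change was 1.15, with a standard error of 0.65, and did not pass the test (limma, adjusted p = 0.199).

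In both groups IDO1 was lowest in the library without blood transcripts. Among the libraries that held them, 2 in each group, IDO1 was higher in shRNA-UBC9 by 1.17 on the log2 scale (limma on those 4 libraries, adjusted p = 0.122). The libraries without them, 1 in each group, differed by 1.13 in the same direction. With the presence of these transcripts as a term in the model, a fit added after the values had been seen, the standard error of IDO1 was 0.359 and it passed (limma, adjusted p = 0.0412). Each group has 2 libraries with and 1 without these transcripts, so the term cannot move the fold change of 1.15, and the smaller error restates that IDO1 was lowest in those libraries. Of 6 immune markers, 5 were above 0 in each of the 4 libraries with blood transcripts, at 0.966 to 1.77 RPKM summed, and 2 in the libraries without them, at 0.675 and 0.758 RPKM summed. PTPRC, CD3E and LYZ were at 0 in the same 2 libraries and at most 0.786 RPKM in the others. Whether RNA of other cells contributed to the IDO1 reads was not tested.

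**Figure D2:**
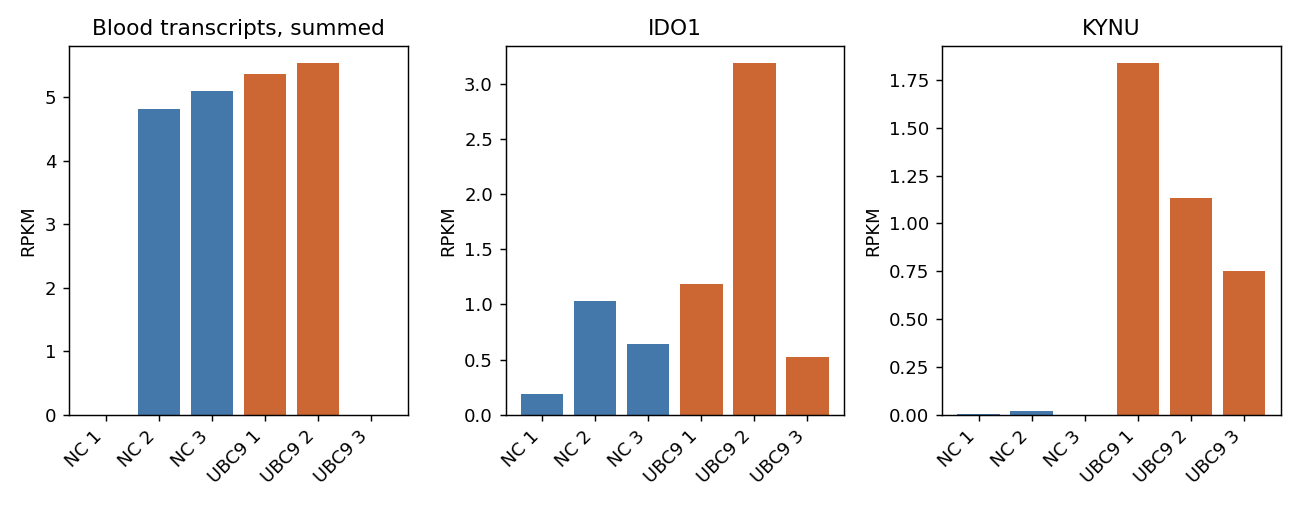
Summed RPKM of 5 blood transcripts (left), IDO1 RPKM (middle) and KYNU RPKM (right) in each library, with shRNA-NC in blue and shRNA-UBC9 in orange. The blood transcripts are at 0 in shRNA-NC replicate 1 and shRNA-UBC9 replicate 3, which hold the lowest IDO1 value of their groups, and KYNU is high in all 3 shRNA-UBC9 libraries with or without them.

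TDO2, the liver-type enzyme of the same step, had no read in any shRNA-NC library and 2, 2 and 1 reads in shRNA-UBC9. Both groups lie at or below the 3 reads that a count of 0 allows in a library, so no fold is given.

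KYNU, the kynureninase that cleaves kynurenine and 3-hydroxykynurenine, showed the largest difference. It had 0.00571, 0.0213 and 0 RPKM in shRNA-NC replicates 1 to 3, which are 3, 13 and 0 reads, and 1.84, 1.13 and 0.753 RPKM in shRNA-UBC9, which are 1165, 702 and 374 reads. Every shRNA-UBC9 library was far above every control library, and within shRNA-UBC9 replicate 1 was the highest. Pooled over libraries, the depth-corrected reads were 138-fold higher in shRNA-UBC9 (16 reads against 2241, exact 95% interval 85.0 to 242.5, for counting error only). Of those 16 control reads 13 came from shRNA-NC replicate 2, and the ratio was 478 without that library (interval 163 to 2320) and 90.7 without shRNA-NC replicate 3, in a check added after the values had been seen. KYNU (chr2:142877657-143055833, plus strand, GRCh38) rose by a log2 fold change of 3.54 (standard error 0.351, limma, adjusted p = 0.000288), rank 67 from the top among the tested genes. This value is compressed by the pseudocount: it was 6.11 with a pseudocount of 0.01 and 1.12 with a pseudocount of 1. The RPKM values are low for the number of reads because the step between values gives an exon length of about 17600 bases for this gene.

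KMO, the hydroxylase that competes with KYNU for kynurenine, was close to 0 in both groups. It had 0.0282, 0.0340 and 0.0298 RPKM in shRNA-NC and 0.0420, 0.0859 and 0.0238 RPKM in shRNA-UBC9, at most 18 reads in a library. The groups overlapped (exact two-sided permutation test, p = 0.4, where 0.1 is the smallest p that 3 against 3 allows).

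WARS had the highest level per length of the 10 genes in both groups. It had 21.4, 17.3 and 23.8 RPKM in shRNA-NC and 20.8, 35.4 and 22.5 RPKM in shRNA-UBC9. Only shRNA-UBC9 replicate 2, the library with the highest IDO1, lay above all control libraries. The log2 fold change of 0.30 (standard error 0.204) did not pass the test (limma, adjusted p = 0.276), and without shRNA-UBC9 replicate 2 it was 0.07.

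Among the receptor genes, AHR itself was lower in shRNA-UBC9. It had 2.83, 3.43 and 3.19 RPKM in shRNA-NC and 2.41, 1.16 and 1.42 RPKM in shRNA-UBC9, or 562 to 792 reads against 267 to 580. The groups did not overlap, with shRNA-UBC9 replicate 1 closest to the controls. AHR (chr7:16916359-17346152, plus strand) fell by 0.94 on the log2 scale (standard error 0.235, limma, adjusted p = 0.0157), short of the fold cutoff of a DEG. Leaving out shRNA-UBC9 replicate 1 gave -1.23 and leaving out shRNA-NC replicate 1 gave -1.01, both past that cutoff. Leaving out shRNA-NC replicate 2 or 3 instead put the adjusted p at 0.0511 and 0.0518 (limma), above the threshold. In the 4 libraries with blood transcripts the difference was as large, at -0.94, but did not pass (limma, adjusted p = 0.086).

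AHRR moved the other way. It had 0.493, 0.387 and 0.369 RPKM in shRNA-NC, or 113, 103 and 96 reads, and 0.831, 0.684 and 0.845 RPKM in shRNA-UBC9, or 230, 185 and 183 reads. No library of one group reached the range of the other. AHRR (chr5:321714-438291, plus strand) rose by a log2 fold change of 0.78 (standard error 0.2, limma, adjusted p = 0.0173), a 1.89-fold higher mean that is short of the fold cutoff. The adjusted p was above the threshold without shRNA-NC replicate 3 (0.06) or shRNA-UBC9 replicate 3 (0.0542), and in the 4 libraries with blood transcripts, where the difference was 0.84 (limma, adjusted p = 0.0648).

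TIPARP was the down-regulated DEG. It had 7.44, 9.29 and 9.21 RPKM in shRNA-NC and 5.33, 3.73 and 3.51 RPKM in shRNA-UBC9, or 1121 to 1625 reads against 500 to 971. All 3 shRNA-UBC9 libraries were below all 3 controls, with replicate 1 the highest of them, as for AHR. The means were 8.65 ± 1.05 RPKM (SD, n = 3) and 4.19 ± 0.997 RPKM (SD, n = 3), 2.06-fold lower in shRNA-UBC9. TIPARP (chr3:156673235-156706770, plus strand) fell by 1.05 on the log2 scale (standard error 0.167, limma, adjusted p = 0.00228). The value lies just past the fold cutoff, and leaving out any of shRNA-NC replicates 2 and 3 or shRNA-UBC9 replicates 2 and 3 moved it to between -0.996 and -0.933 with the adjusted p still below the threshold. An antisense transcript, TIPARP-AS1, had at most 0.27 RPKM, and whether reads were counted by strand is not given in the sources used here.

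The 2 cytochrome P450 genes most used to read AHR activity were scarcely detected. CYP1A1 had 0.107, 0.0672 and 0.0602 RPKM in shRNA-NC and 0.0727, 0.0413 and 0.0413 RPKM in shRNA-UBC9, from 4 to 11 reads a library. The groups overlapped (exact two-sided permutation test, p = 0.3). CYP1B1 had 0.00557, 0.0192 and 0.0147 RPKM in shRNA-NC and 0.0369, 0.0189 and 0.0236 RPKM in shRNA-UBC9, from 1 to 8 reads, and the groups overlapped as well (exact two-sided permutation test, p = 0.2). With so few reads, a modest difference between the groups was not detectable at this depth.

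The levels per length of the 10 genes kept the same leading order in both groups, with WARS above TIPARP and TIPARP above AHR. In shRNA-NC, IDO1 came next with a range that overlapped that of AHRR, and KYNU had the lowest level but for TDO2, its range overlapping those of CYP1B1 and TDO2. In shRNA-UBC9, KYNU stood between IDO1 and AHRR, and the ranges of neighbours overlapped from AHR through IDO1 and KYNU to AHRR. By mean RPKM over all 58174 genes, KYNU went from rank 19191 in shRNA-NC to rank 10826 in shRNA-UBC9.

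Of 13 other enzymes on the way from kynurenine to NAD and its side branches, 9 passed the filter, none rose and 4 fell by the adjusted p (KYAT1, AFMID, KYAT3 and NMNAT1), with a median log2 fold change of -0.31. Over all tested genes 18.8% rose and 18.0% fell by the adjusted p, with a median of 0.005. KYAT1, an aminotransferase that makes kynurenic acid, was the DEG of this list. It had 3.45, 3.896 and 3.51 RPKM in shRNA-NC and 1.85, 1.55 and 1.72 RPKM in shRNA-UBC9, a fall of 1.04 on the log2 scale (standard error 0.112, limma, adjusted p = 0.000409). The 3 enzymes with the highest levels were GOT2, QPRT and KYAT3. GOT2, the mitochondrial aspartate aminotransferase, had a log2 fold change of -0.10 (adjusted p = 0.51). KYAT3 fell by 0.31 (adjusted p = 0.0368), and QPRT, which makes the NAD precursor from quinolinic acid, had a log2 fold change of 0.59 that did not pass (limma, adjusted p = 0.0565). HAAO, the dioxygenase that makes the precursor of quinolinic acid, was above 0 in shRNA-NC replicate 2 alone, at 0.0106 RPKM. Both KMO and HAAO were thus close to 0 in these cells, whereas KYNU, between them on the same route, was not in shRNA-UBC9.

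**Figure D3:**
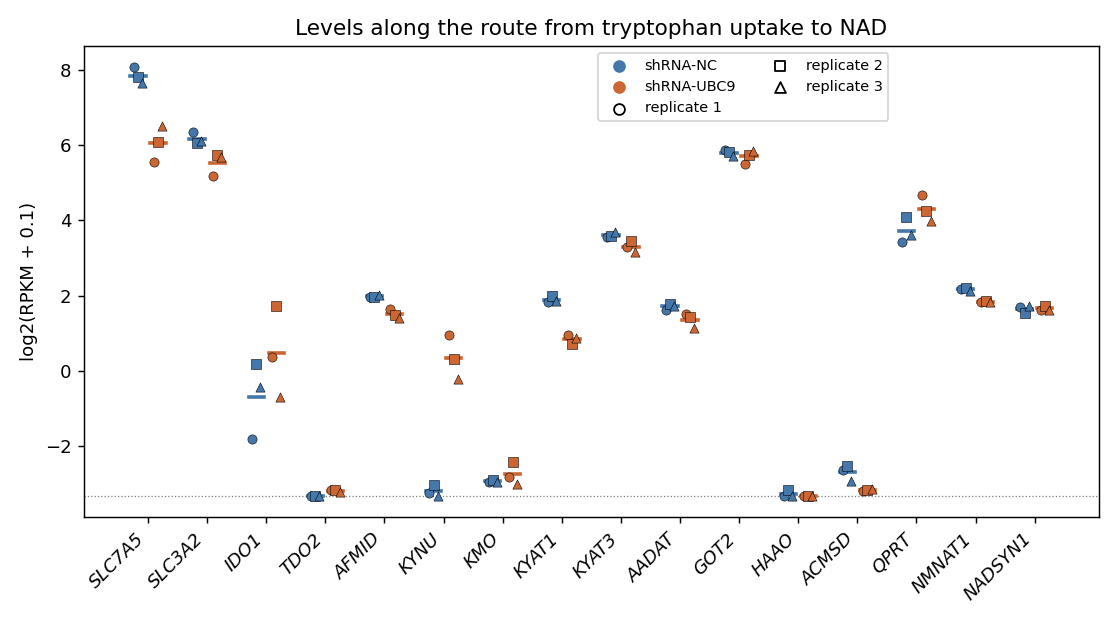
Level of 16 genes from tryptophan uptake (left) to NAD synthesis (right), as log2(RPKM + 0.1), in shRNA-NC (blue) and shRNA-UBC9 (orange) libraries; shapes give the replicate, bars the group means of the log values, and the dotted line 0 RPKM. SLC7A5, SLC3A2, AFMID, KYAT1, KYAT3, AADAT and NMNAT1 are lower in every shRNA-UBC9 library, though AADAT did not pass the test (limma, adjusted p = 0.0559). KYNU is higher, and TDO2, KMO, HAAO and ACMSD lie close to the dotted line in both groups.

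Of 11 genes of tryptophan transport and other tryptophan use, 5 passed the filter, 1 rose and 2 fell by the adjusted p, with a median log2 fold change of -0.32, beside 18.8%, 18.0% and 0.005 for all tested genes. SLC7A5, the light chain of the transporter that brings in tryptophan and other large neutral amino acids, had 268, 226 and 199 RPKM in shRNA-NC and 46.9, 68.3 and 90.2 RPKM in shRNA-UBC9. All shRNA-UBC9 libraries were below all controls, and it fell by 1.80 on the log2 scale (standard error 0.22, limma, adjusted p = 0.0007). Its heavy chain SLC3A2 fell by 0.63 (limma, adjusted p = 0.0155). IL4I1, a secreted oxidase that turns tryptophan into other AHR ligands, had 0.353, 0.642 and 0.196 RPKM in shRNA-NC and 4.47, 9.02 and 4.66 RPKM in shRNA-UBC9. The groups were far apart, and IL4I1 rose by 3.65 on the log2 scale (standard error 0.366, limma, adjusted p = 0.000298). It reached 0.5 RPKM in 1 shRNA-NC library and in 3 shRNA-UBC9 libraries, so it entered the test through the group where it was high. The value is near the 3.54 of KYNU only because the pseudocount compresses the latter. The mean RPKM was 15.2-fold higher in shRNA-UBC9 for IL4I1 and 138-fold higher for KYNU. SLC36A4 had a log2 fold change of -0.32 and WARS2, the mitochondrial tryptophanyl-tRNA synthetase, of -0.25, and neither passed (limma, adjusted p = 0.067 and 0.117).

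All 6 listed partners of AHR passed the filter. ARNT, its dimer partner in the nucleus, fell from 7.51, 7.77 and 7.81 RPKM to 6.19, 5.23 and 5.65 RPKM, by 0.43 on the log2 scale (limma, adjusted p = 0.00799), and was no DEG. The other 5 did not pass, so 1 of 6 fell where 18.0% of all tested genes did. The chaperones HSP90AB1, HSP90AA1 and PTGES3, with the highest levels of the list, had log2 fold changes of 0.03, -0.31 and 0.02 (limma, adjusted p = 0.843, 0.144 and 0.908).

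Of 11 other genes reported to respond to AHR in some cell types, 7 passed the filter, and 3 rose and 1 fell, all 4 of them DEGs, where 5.20% of all tested genes were DEGs that rose and 2.70% DEGs that fell. SERPINB2, a serine protease inhibitor, had 0.378, 2.13 and 0.344 RPKM in shRNA-NC and 501, 286 and 239 RPKM in shRNA-UBC9, and its log2 fold change of 8.70 (standard error 0.578, limma, adjusted p = 4.41e-05) was the highest of all tested genes. EREG, a ligand of the EGF receptor, had 7.62, 19.2 and 7.42 RPKM against 70.0, 47.8 and 46.3 RPKM and rose by 2.37 (limma, adjusted p = 0.00154). XDH, which oxidises xanthine, had 1.76, 1.10 and 1.68 RPKM against 2.91, 7.12 and 6.60 RPKM and rose by 1.73 (limma, adjusted p = 0.00471). SLC7A5, described above, belongs to this list too and fell. NQO1, a quinone reductase with the next highest level, had a log2 fold change of -0.04 (limma, adjusted p = 0.786), and NEDD9 and CYP2S1 had 0.32 and -0.24 (adjusted p = 0.399 and 0.371). Several of these genes answer to other signals as well, and the targets thus did not share a direction. SERPINB2 reached 0.5 RPKM in 1 shRNA-NC library and in 3 shRNA-UBC9 libraries, so it entered the test through the group where it was high. The list was also chosen with earlier results of these data known. Its counts carry both choices and do not measure an excess over all tested genes.

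On the interferon-gamma route, which induces IDO1 and WARS, IFNG itself was at 0 in all 6 libraries. Of the 7 genes listed for this route 6 passed the filter. By the adjusted p 3 rose, 0 fell and 3 did not pass, where 18.8% of all tested genes rose and 18.0% fell. Their median log2 fold change was 0.15, beside 0.005 for all tested genes. Among those that rose, the receptor chain IFNGR2 did so by 0.999 on the log2 scale, just short of the fold cutoff (limma, adjusted p = 0.000551). The kinase JAK1 rose by 0.31 (limma, adjusted p = 0.0398).

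**Figure D4:**
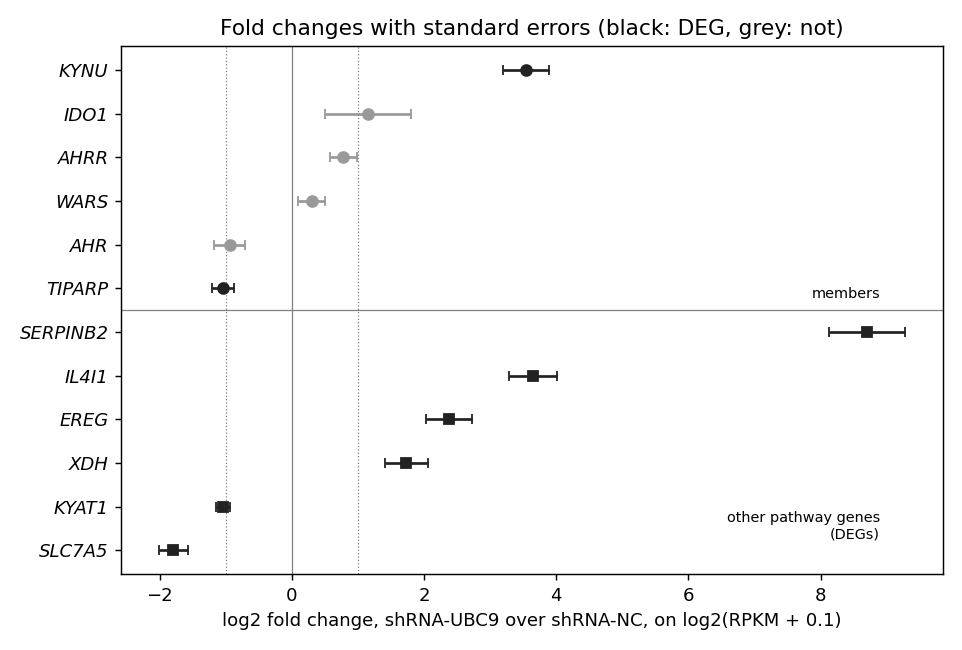
Log2 fold change of shRNA-UBC9 over shRNA-NC on log2(RPKM + 0.1), with bars of 1 standard error from limma, for the 6 tested genes of the kynurenine and AHR group (circles, top) and 6 DEGs among the other pathway genes (squares, bottom). Black marks DEGs and grey the rest, and dotted lines mark the fold cutoff of 1. KYNU and IL4I1 lie at 3.54 and 3.65, TIPARP and KYAT1 just past -1, and the IDO1 bar is the widest of the 6.

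The genes closest in profile to each tested gene were found by the root mean square (RMS) difference of log2 values over the 6 libraries, each centred on its shRNA-NC mean. For KYNU, the closest was NAMPT, the rate-limiting enzyme of NAD salvage, at an RMS difference of 0.12, followed by LINC02015 and AC003092.1. These neighbours hold for the pseudocount of 0.1 only. KYNU was near 0 in shRNA-NC, and its log2 fold change was 3.54 with this pseudocount and 6.11 with 0.01. Neighbours at other pseudocounts were not tested. For IDO1, CCL5 and GBP4 were among the closest, both at an RMS difference of 0.48. For WARS they were LGMN, WDR25 and TMEM175, and for AHR they were KIAA1211, CDK19 and ZNF699, whose RMS differences ranged from 0.08 to 0.14. For AHRR they were SLC45A4, F12 and JUN, at 0.04 to 0.06, and for TIPARP they were PCCA, DDI2 and GULP1, at 0.06 to 0.10. The likeness is one of change in log2(RPKM + 0.1) from the shRNA-NC mean over 6 libraries only, and not one of level.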

How the data were processed

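The authors extracted RNA with Trizol, made TruSeq libraries and sequenced them on an Illumina HiSeq instrument, then trimmed adaptors, used the CLC Biomedical Genomics Workbench 4 (default settings) to map to GRCh38, and deposited RPKM per gene. The annotation release, the treatment of multi-mapping reads and strandedness are not given in the sources used here. Groups came from the sample labels. Values were analysed as log2(RPKM + 0.1), with genes at 0.5 RPKM or more in at least 3 of 6 libraries (12428 genes), by limma 3.58.1 in R 4.3.3 (eBayes with trend). RPKM is not a count, so no count model was used. Reads per gene were recovered as whole multiples of the smallest step (99.0% of 500 low genes came out whole within 0.02), with the absolute depth set by exon lengths in GENCODE release 44. Values for genes with near-identical copies are uncertain.

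The genes, lists and motifs were chosen with earlier results of these data known. All 10 genes are named, with every DEG of the other pathway lists, up to 3 others per list with the highest mean RPKM, and the 3 closest profiles, except for a few genes that are not reported here. Genes outside that rule (AFMID, NMNAT1, AADAT, HAAO, IFNG, ACMSD, ARNT, the blood transcripts, TIPARP-AS1 and markers) were named after their values were seen or for a check. The fit was tested on simulated data for 12428 genes: it called 94.5% of 200 genes given a log2 change of 2, and 2 unchanged genes. Changes near the fold cutoff of 1, such as those of AHR, AHRR, TIPARP and IDO1, were not simulated. Alternatives covered the pseudocount, filter, normalization, variance model, threshold, a replicate block, each library left out and, added after the data had been seen, the libraries with blood transcripts. Python 3.11.15, numpy 2.4.6, pandas 2.3.3, scipy 1.17.1 and matplotlib 3.10.9 were used.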

Additional observations from a re-analysis of the deposited data

How the results depend on the processing

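No log2 fold change of the tested genes changed direction under any alternative run. KYNU stayed a DEG in all 16 alternatives in which it was tested, and TIPARP lost the fold cutoff in 5 of 17 while its adjusted p stayed at or below 0.0154 in the 16 with an adjusted p. Over all genes the count of DEGs was 981; it was 552 with a pseudocount of 1 and 552 with at least 1 RPKM in every library. Among the 10 genes the count was 2. It was 1 with a pseudocount of 1 (KYNU) and 1 with at least 1 RPKM in every library (TIPARP, as KYNU was not tested there), and leaving out 1 library gave 1 to 3. Without shRNA-NC replicate 2 or 3 or shRNA-UBC9 replicate 2 or 3, KYNU was the one DEG, and without shRNA-NC replicate 1 or shRNA-UBC9 replicate 1 AHR joined KYNU and TIPARP. IDO1 ranged from 0.53 without shRNA-UBC9 replicate 2 to 1.73 without shRNA-UBC9 replicate 3, and it passed only with the blood transcript term, chosen after IDO1 had been seen to be lowest in the libraries without these transcripts (adjusted p = 0.0412, with a highest value of 0.532 over the alternatives). AHRR was 0.33 with a pseudocount of 1. Same-number correlations of deviations from the group means were -0.367, 0.073 and -0.170. The highest of all pairs, 0.526, joined shRNA-NC replicate 1 and shRNA-UBC9 replicate 3, the libraries without blood transcripts. Each deviation is taken from a mean of 3 libraries, so these values constrain each other and cannot exclude a pairing by replicate number. With a replicate block there were 974 DEGs over all genes and 2 among the 10, and AHRR had an adjusted p of 0.0516 (limma). For CYP1A1, CYP1B1, KMO and TDO2, at most 18 reads a library limit what could be seen.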
